A study of Mus musculus with 8 samples.

Results

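The protocadherin gamma cluster of mouse chromosome 18 encodes neuronal cell-surface adhesion proteins related to cadherins. Each of its variable exons carries a promoter of its own and codes for the extracellular part of 1 isoform, which is spliced to constant exons shared by the whole cluster. Neurons differ in the isoforms they use, and the choice is known to involve DNA methylation at these promoters and binding of the insulator protein CTCF. The A-type and B-type variable exons (Pcdhga and Pcdhgb genes) are used in a stochastic manner, whereas the C-type exons (Pcdhgc genes) sit at the end of the variable array and are regulated differently. The array design names 5 of these genes with enough probes to be described here, out of 11422 gene symbols in all. They are Pcdhga11 and Pcdhga12 (A-type), Pcdhgb8 (B-type, a transcribed pseudogene in the RefSeq table of assembly GRCm38), and Pcdhgc3 and Pcdhgc4 (C-type). They were chosen by name, and 38 of 88737 probes carry one of the 5 names.

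Methylated DNA was measured by mDIP, in which fragmented genomic DNA is precipitated with an antibody against 5-methylcytidine. Antibody-bound DNA (Cy5) and input DNA (Cy3) of the same sample were hybridised together to a mouse CpG island array. The 8 groups have 1 array each: embryonic stem (ES) cells that are wild type, aid-/-, mbd4-/- or carry a Gadd45a knockdown; the other 4 are aid-/- liver, mbd4-/- liver, aid-/- spleen and mbd4-/- spleen (C57BL6/J mice aged 6 months). AID is a cytidine deaminase, MBD4 a DNA glycosylase that acts on mismatched thymine, and GADD45A a stress-response protein, all of which have been placed in models of DNA demethylation. Wild-type liver and spleen were not analysed here, and the wild type is the one control here for the knockdown. The labels give no clone for the ES lines. Per the labels, the DNA of the aid-/- and the mbd4-/- tissues came from different laboratories.

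Values are log2 of bound over input signal minus the median of the array, so 0 is the typical probe of that array, and a value is no methylation percentage. Across the 8 arrays 65.5% to 92.3% of probes had a bound signal well above background, lowest in ES aid-/- and highest in mbd4-/- liver. The plateau, meaning the 98th percentile of autosomal regions, was 2.23 to 4.34, lowest in aid-/- liver and highest in ES aid-/-. The aid-/- tissue arrays, ES aid-/- and ES wild type were scanned on day 1, the mbd4-/- tissues on day 2, ES mbd4-/- on day 3 and the Gadd45a knockdown on day 4, so genotype and scan day cannot be told apart in liver and spleen, and ES mbd4-/- and the knockdown each have a scan day of their own. These probes report antibody binding, and cannot show whether a gene was deleted or knocked down. Of 24 marker genes listed for ES cells, liver, blood and neural cells, 4 had a region on the array (F2, Zap70, Nes and Tubb3), so the labelled tissues could not be checked against their markers.

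The 38 probes lie along 54.3 kb, and 34 of them had an input signal well above background on every array and were used. The 4 others were 2 of Pcdhga12 and 1 each of Pcdhgb8 and Pcdhgc3, with 36.7% to 46.8% GC; they enter no region, but counts and ranges over single probes of the genes include them. Probes with starts at most 500 bp apart were joined, which gave 5 regions with at least 3 probes and 2 lone Pcdhga12 probes, out of 13183 regions with at least 3 probes on the array. Positions are in build mm9, as the file headers give them, and no mm9 gene annotation was used, so exons, introns and start sites are not assigned. In order along the chromosome, the Pcdhga11 region (chr18:37912834-37913442) has 4 probes. The region shared by Pcdhga11 and Pcdhgb8 (chr18:37915240-37915951) has 5 probes, 2 named for the former and 3 for the latter. The 6-probe Pcdhga12 region (chr18:37925832-37926707) and the 4-probe Pcdhga12 region (chr18:37927496-37928030) follow. The region shared by Pcdhgc3 and Pcdhgc4 (chr18:37965667-37967176) has 13 probes, 3 and 10 of them named for each gene.

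The genes fell into 2 kinds by level. The 4 regions of Pcdhga11, Pcdhgb8 and Pcdhga12 lay at or above the 84.1th percentile of all regions on 7 of the 8 arrays, with Gadd45a knockdown ES cells as the exception. The Pcdhgc3 and Pcdhgc4 region had means of −0.64 to 0.28 over the 8 arrays, at the 67.0th percentile or below. On the ES wild-type array the 24 probes of the first 3 genes ran from 1.75 to 4.94 (median 3.52), and all 24 had a bound signal well above background. The 14 probes of Pcdhgc3 and Pcdhgc4 ran from −2.23 to 1.06 (median 0.08) on the same array. The 2 sets of probes did not overlap there, although they are alike in composition: the median GC content was 47.4% and 50%, and the median number of CpG sites per probe was 2 in both, as over all probes of the array.

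**Figure D1:**
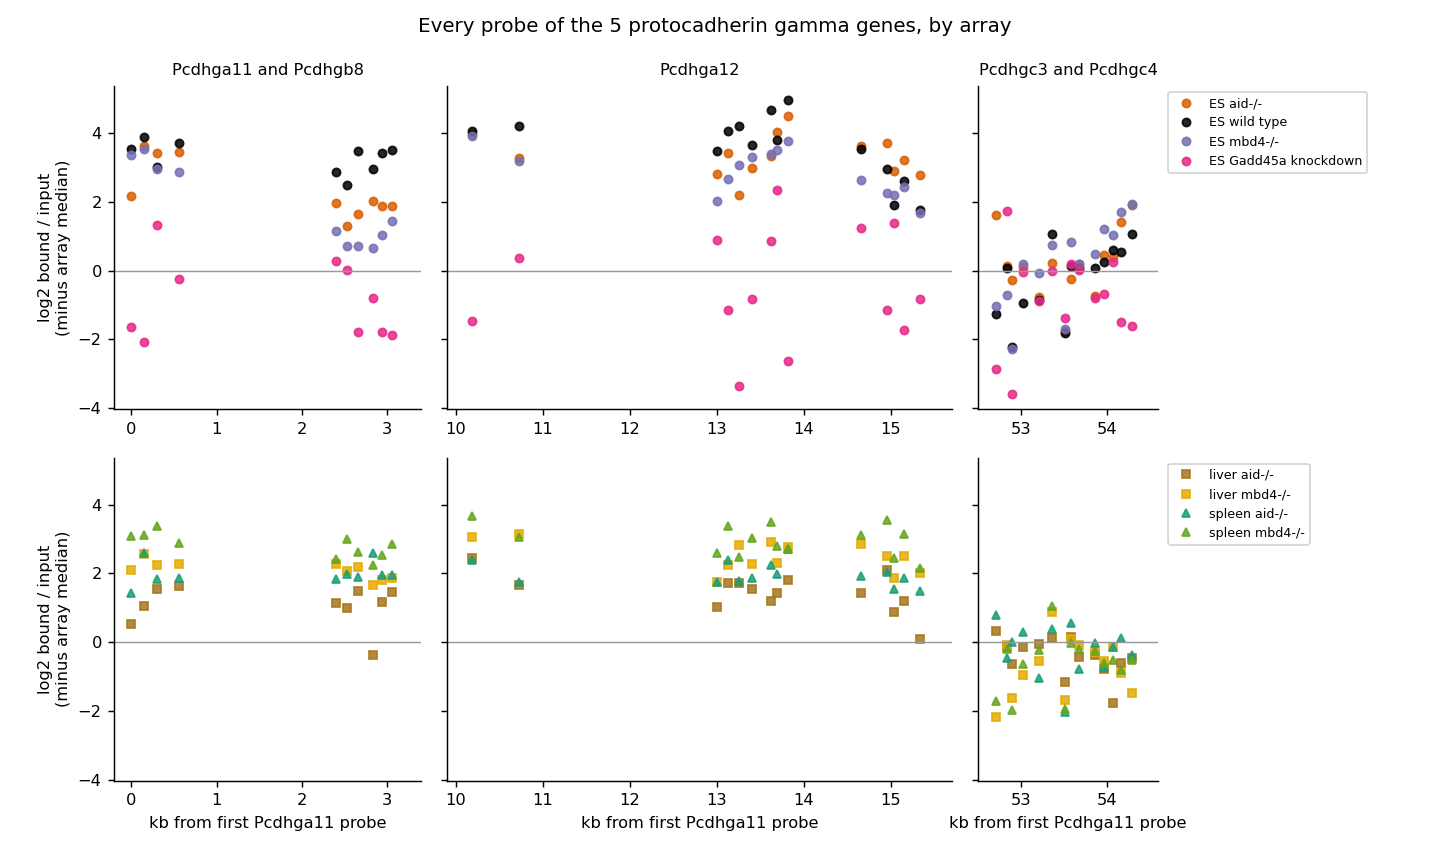
Each point is 1 of the 38 probes of the 5 genes: log2 bound over input minus the array median (y axis) against the distance in kb from the first Pcdhga11 probe (x axis, 3 stretches of the cluster), for the 4 ES arrays (top row) and the 4 liver and spleen arrays (bottom row). Pcdhga11, Pcdhgb8 and Pcdhga12 probes lie above 0 on the 7 other arrays apart from 1 aid-/- liver probe at −0.38, and in the Gadd45a knockdown 15 of 24 lie below 0.

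The Pcdhga11 region stood at 3.53 ± 0.37 (SD over 4 probes) in ES wild type, and ES aid-/- had 3.16 ± 0.68, ES mbd4-/- 3.17 ± 0.32 and the Gadd45a knockdown −0.66 ± 1.53. In liver it was 1.19 ± 0.52 in aid-/- and 2.29 ± 0.20 in mbd4-/-, and in spleen 1.93 ± 0.48 and 3.12 ± 0.19. The 3 other ES arrays and mbd4-/- spleen were the 4 highest. The knockdown was the lowest of the 8 by far, and its probes were the most scattered.

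The region shared by Pcdhga11 and Pcdhgb8 was the one that varied most among the other ES arrays, at 3.16 ± 0.46 (SD over 5 probes) in wild type, with aid-/- at 1.74 ± 0.28, mbd4-/- at 1.01 ± 0.31 and the knockdown at −1.03 ± 1.08. Liver stood at 1.25 ± 0.22 (aid-/-) and 2.04 ± 0.20 (mbd4-/-), and spleen at 1.93 ± 0.06 and 2.69 ± 0.24. Its probes separate the 4 ES arrays almost without overlap, and its rank among all regions was the lowest of the 4 regions of these genes in ES mbd4-/-, at the 84.1th percentile. The 2 gene names within it differed most in the knockdown, where the 2 Pcdhga11 probes averaged 0.15 and the 3 Pcdhgb8 probes −1.82, and in wild type, at 2.67 and 3.48.

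Pcdhga12 had the highest wild-type values of the cluster. Its 6-probe region stood at 4.10 ± 0.59 in ES wild type, the 99.6th percentile of all regions, 3.51 ± 0.64 in aid-/-, 3.11 ± 0.65 in mbd4-/- and −0.08 ± 1.78 in the knockdown. In liver it was 1.45 ± 0.30 (aid-/-) and 2.39 ± 0.41 (mbd4-/-), and in spleen 2.16 ± 0.36 and 3.00 ± 0.37. The 4-probe region was the one region of the 4 in which wild type was not the highest ES array: 2.75 ± 0.68 in wild type, 3.36 ± 0.38 in aid-/-, 2.38 ± 0.19 in mbd4-/- and −0.06 ± 1.61 in the knockdown. In aid-/- liver it was 1.40 ± 0.51 and in mbd4-/- liver 2.43 ± 0.41, with 1.85 ± 0.22 and 3.06 ± 0.46 in spleen of the same genotypes. The 2 lone Pcdhga12 probes nearest to Pcdhgb8 read 4.04 and 4.21 in wild type and −1.47 and 0.38 in the knockdown, and all 14 Pcdhga12 probes were lower in the knockdown than in wild type.

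The C-type region of Pcdhgc3 and Pcdhgc4 stood at −0.15 ± 1.02 (SD over 13 probes) in ES wild type, 0.08 ± 0.93 in aid-/-, 0.28 ± 1.23 in mbd4-/- and −0.64 ± 1.26 in the knockdown. In liver it was −0.47 ± 0.54 (aid-/-) and −0.56 ± 0.75 (mbd4-/-), and in spleen −0.32 ± 0.70 and −0.52 ± 0.78. All 8 means lay within 0.91 of each other, and the 3 ES arrays other than the knockdown were above all 4 tissue arrays. Within the region the Pcdhgc3 probes averaged −1.03 and the Pcdhgc4 probes 0.11 in ES wild type, and both averaged −0.64 in the knockdown. The 3 Pcdhgc3 probes ran from −3.59 to 1.72 in the knockdown, so their mean there says little. The 2 Pcdhgc4 probes farthest from Pcdhgc3 were the highest of the region in ES mbd4-/-, at 1.70 and 1.94, against 0.55 and 1.06 in wild type and −1.49 and −1.60 in the knockdown.

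**Figure D2:**
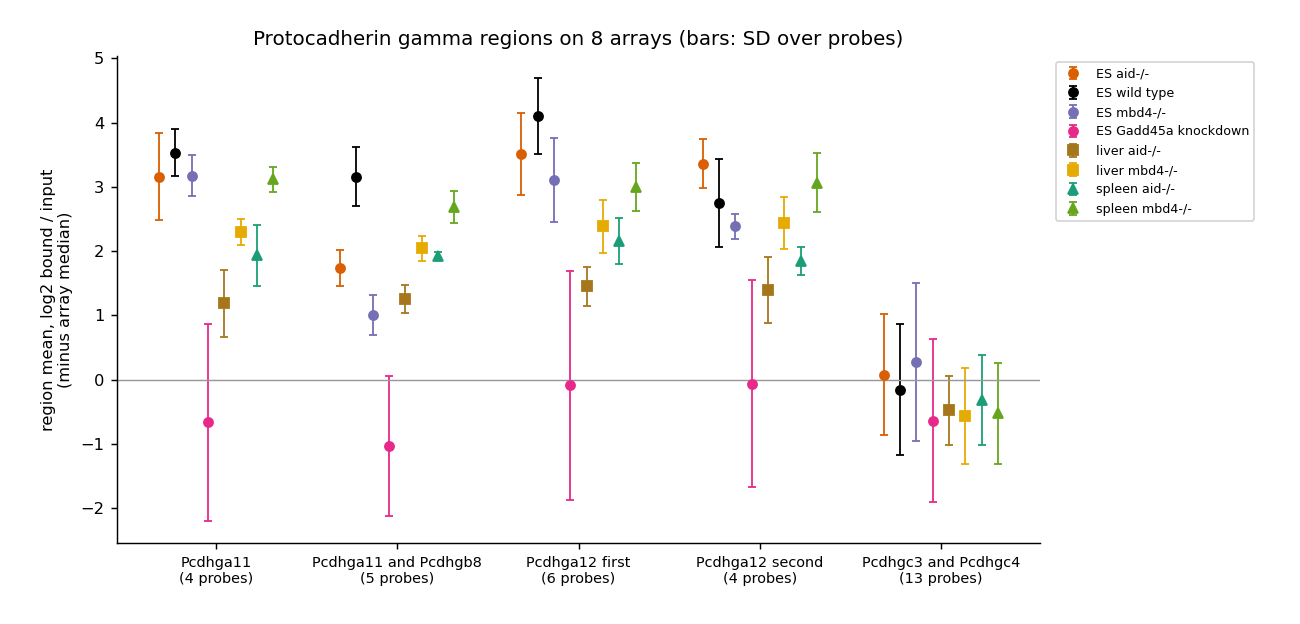
Points are means of the log2 ratio of a region, centred on the array median (y axis), for the 5 regions in order along the chromosome (x axis), 1 point for each of the 8 arrays, and bars are the SD over the probes of the region, not over replicates. The first 4 regions span 3.42 to 4.19 between the highest and the lowest array, with the Gadd45a knockdown lowest in each, and the Pcdhgc3 and Pcdhgc4 region spans 0.91.

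On the knockdown array the first 4 regions lay at the 17.0th, 7.86th, 42.1th and 43.2th percentiles. The range over the 8 arrays was 4.19, 4.18, 4.18 and 3.42, against a median range of 1.13 over all regions, and 97.3% to 99.0% of regions had a smaller one. For the Pcdhgc3 and Pcdhgc4 region 33.2% of regions had a smaller range. Of the 4, 3 reached 50% of the plateau on all 7 arrays other than the knockdown, and the Pcdhga11 and Pcdhgb8 region did so on 5. In all, 716 regions on the array reached 50% of the plateau on all 7 of those arrays. Of these, 220 (30.7%) were under 50% of the plateau in the knockdown, and the 3 were among them. By the rule for pairs given below, 308 (43.0%) of the 716 were lower in the knockdown, again with the 3 among them.

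The first comparison set each ES line against ES wild type. A region was counted as lower or higher when its mean changed by 1 or more in log2 and 75% or more of its probes moved the same way. With 1 array a group there is no test, and a difference compares these 2 arrays, not the genotypes. All 3 comparisons share the wild-type array.

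In the Gadd45a knockdown, 4 of the 5 regions were lower than in wild type and none was higher, beside 5.88% of all 13183 regions lower. The differences were −4.19 for Pcdhga11 (−0.66 against 3.53), −4.18 for Pcdhga11 and Pcdhgb8 (−1.03 against 3.16), −4.18 for the 6-probe Pcdhga12 region (−0.08 against 4.10) and −2.81 for the 4-probe region (−0.06 against 2.75). Counted from the lowest, these were ranks 3, 4, 5 and 39 of all regions. The Pcdhgc3 and Pcdhgc4 region differed by −0.49, with 9 of 13 probes lower, and did not pass. Every one of the 24 probes of Pcdhga11, Pcdhgb8 and Pcdhga12 was lower than in wild type (−7.55 to −0.51, median −4.03), but 8 of the 24 had no bound signal well above background in the knockdown and 3 had a dim input on at least 1 array, so the size of those differences is not exact. A probe of the 6-probe Pcdhga12 region with 42.3% GC went from 4.94, the highest of all 38 in wild type, to −2.61.

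The 4 regions were also set against regions that were high in wild type. Of the 825 regions at or above 50% of the wild-type plateau, 43.9% were lower in the knockdown. Among the 465 of them with a mean probe GC under 55%, where all 4 regions of Pcdhga11, Pcdhgb8 and Pcdhga12 lie, it was 39.4%. The median difference of those 465 was −0.75 and their 5th percentile −2.95, so the 3 largest differences of the cluster lay beyond that percentile and the −2.81 of the 4-probe Pcdhga12 region did not. Over all 825 the 5th percentile was −2.66, and all 4 lay beyond it. These sets were picked as high on the same wild-type array that was subtracted, so some fall is built into the comparison. The 4 regions stood at 81.8% to 121.8% of the wild-type plateau, and the cut was 50%. The percentiles therefore do not set them against regions of like height.

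The probe values in the knockdown moved with GC content. Of the 24 probes, the 14 under 50% GC had a median of −1.40 (−3.34 to 0.38) in the knockdown and the 10 with 50% GC or more a median of 0.87 (−1.78 to 2.35). Over all probes of that array the medians were −1.11 and 0.35. In ES wild type the same 2 sets of cluster probes had medians of 3.50 and 3.59, against −0.54 and 0.15 over all probes. Thus in wild type the cluster probes stood far above other probes of like GC content, and in the knockdown they did not. The bound signal was well above background for 16 of the 24 probes in the knockdown and for all 24 in wild type. When each array was corrected for GC content, the 4 differences were −3.93, −3.80, −4.04 and −2.75. With normexp background correction they were −2.28 to −1.79, more than 1.5 times smaller for 3 of the 4 regions, and still passed.

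**Figure D3:**
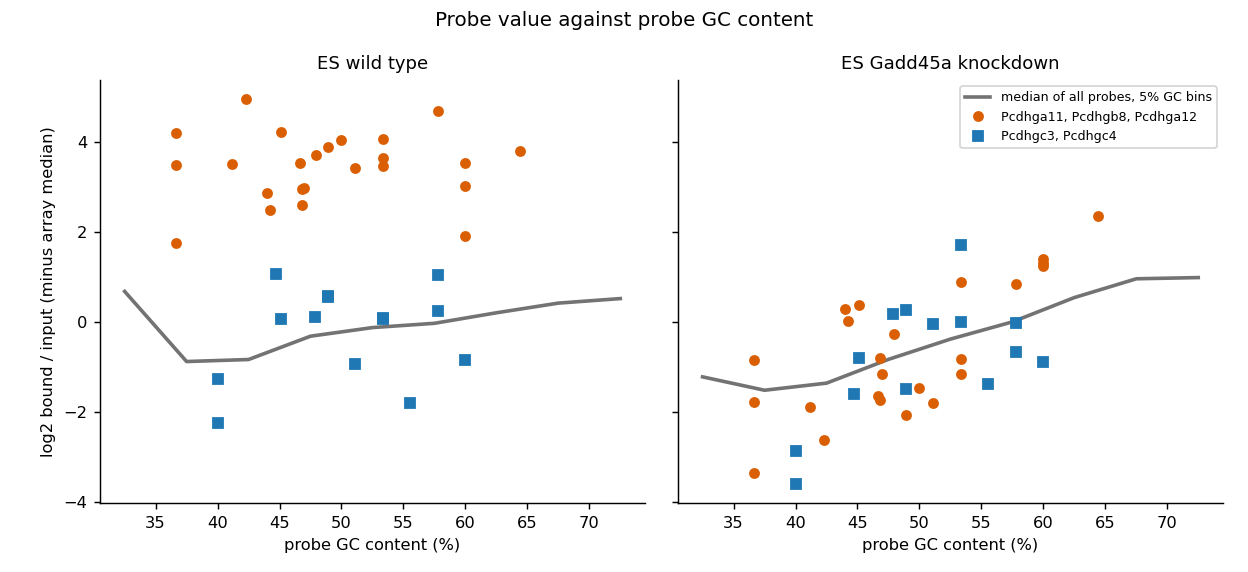
Each point is 1 of the 38 probes: log2 bound over input minus the array median (y axis) against the GC content of the probe in percent (x axis), on the ES wild-type array (left) and the Gadd45a knockdown array (right), and the grey line is the median of all probes of the array in bins of 5% GC. In wild type the Pcdhga11, Pcdhgb8 and Pcdhga12 probes (1.75 to 4.94) lie above the line, and in the knockdown they lie around it and rise with GC content, as the Pcdhgc3 and Pcdhgc4 probes mostly do.

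The input channel also differed. Relative to wild type, the log2 input signal in the knockdown was 0.68 higher over the Pcdhga11 region and 0.75 higher over the Pcdhga11 and Pcdhgb8 region, at the 92.6th and 94.2th percentiles of all regions. Over the 2 Pcdhga12 regions it differed by −0.05 and −0.06. The bound signal was lower in the knockdown over all 4, with differences of −3.49, −3.41, −4.21 and −2.85. Most of each difference in the ratio therefore lay in the bound channel, and the part of the input channel was not tested further.

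In ES mbd4-/- the Pcdhga11 and Pcdhgb8 region alone passed as lower, beside 2.42% of all regions. It stood at 1.01 against 3.16 in wild type, a difference of −2.15, with all 5 probes lower (−2.77 to −1.72), and ranked 8 from the lowest of all regions. The 6-probe Pcdhga12 region, at −0.99, just missed the threshold with 6 of 6 probes lower, and passed in 6 of 12 alternative settings. Pcdhga11 differed by −0.36, the 4-probe Pcdhga12 region by −0.37, and the Pcdhgc3 and Pcdhgc4 region by 0.43. Over the Pcdhga11 and Pcdhgb8 region the log2 input signal of mbd4-/- was 1.31 above wild type, the 99.9th percentile of all regions, and the bound signal differed by −0.87, so the larger share of this difference lay in the input channel.

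In ES aid-/- the same region alone passed as lower, beside 3.71% of all regions. It stood at 1.74 against 3.16, a difference of −1.42, with all 5 probes lower (−1.83 to −0.88). Here the input signal differed from wild type by −1.13 and the bound signal by −2.23. Pcdhga11 differed by −0.37 and the 6-probe Pcdhga12 region by −0.59, and the 4-probe Pcdhga12 region was the other way, at 0.60, with 4 of 4 probes higher (−0.15 with arrays scaled to one plateau). The Pcdhgc3 and Pcdhgc4 region differed by 0.23. With the 3 arrays scaled to one plateau (the plateau is 3.36 in wild type and 4.34 and 4.30 in aid-/- and mbd4-/-), Pcdhga11 and the 6-probe Pcdhga12 region passed as lower too, at −1.08 and −1.38 in aid-/- and −1.06 and −1.67 in mbd4-/-. Both also passed with the deposited values, at −1.39 and −2.33 in aid-/- and −1.02 and −2.10 in mbd4-/-. The 4-probe Pcdhga12 region passed there in mbd4-/-, at −1.14. In aid-/- neither Pcdhga11 nor the 6-probe Pcdhga12 region passed in the 10 other alternatives.

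**Figure D4:**
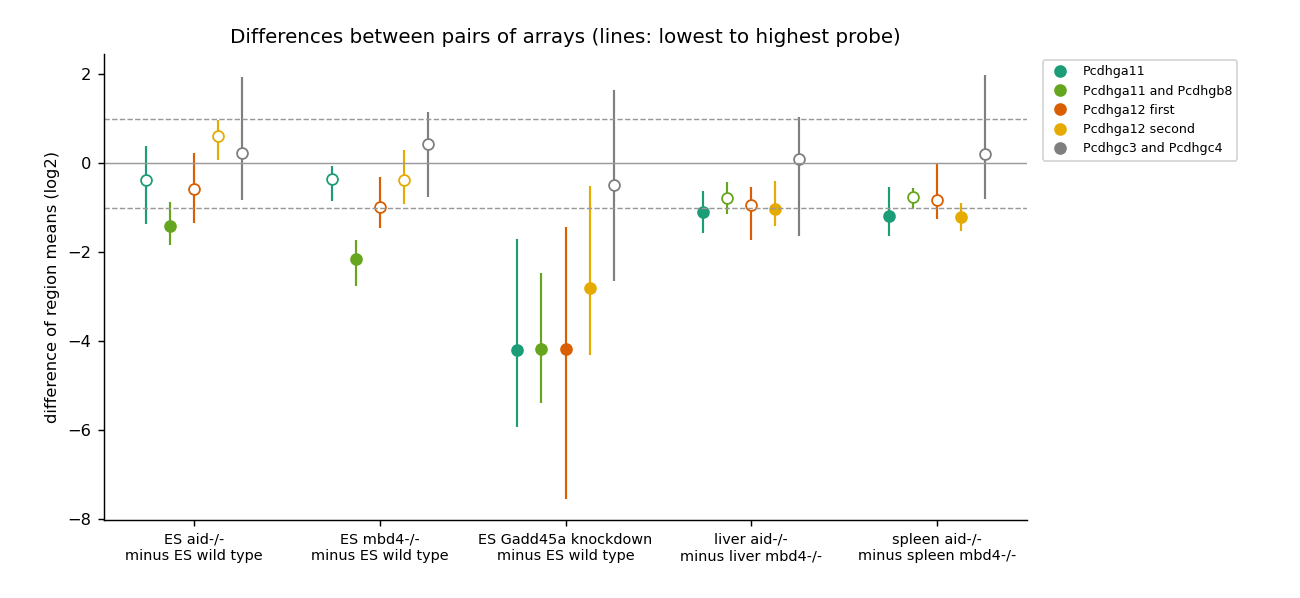
Points are differences of region means in log2 (y axis) for the 5 comparisons of 2 arrays (x axis), coloured by region; filled points passed the rule (at least 1, dashed lines, and at least 75% of probes in that direction), open points did not, and vertical lines run from the lowest to the highest probe difference. The Gadd45a knockdown column reaches −4.19, and no region passed as higher in any column.

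In liver and spleen, aid-/- was set against mbd4-/- since wild-type tissue was not analysed here. Pcdhga11 was lower in aid-/- liver (1.19 against 2.29, a difference of −1.10) and in aid-/- spleen (1.93 against 3.12, −1.18). The 4-probe Pcdhga12 region was lower as well, at −1.03 in liver (1.40 against 2.43) and −1.22 in spleen (1.85 against 3.06). These 2 of 5 regions passed in each tissue, beside 8.01% of all regions lower in liver and 8.15% in spleen. Of 12 alternative settings, Pcdhga11 passed in 7 in liver and 11 in spleen, and the 4-probe Pcdhga12 region in 5 and 9. Both fell short in liver when centred on the low mode (−0.92 and −0.86), with normexp background (−0.88 and −0.80) and with the deposited values (−0.26 and −0.27).

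The Pcdhga11 and Pcdhgb8 region missed the threshold at −0.79 in liver and −0.76 in spleen, and so did the 6-probe Pcdhga12 region at −0.93 and −0.84. Of the 12 alternative settings, the former passed in 2 in liver and 3 in spleen, and the latter in 2 and 1. All 24 probes of the 3 genes were lower in aid-/- liver, and 23 of 24 in aid-/- spleen. The Pcdhgc3 and Pcdhgc4 region differed by 0.09 and 0.20. The plateau was 2.23 in aid-/- liver against 4.02 in mbd4-/- liver, and 2.24 against 3.65 in spleen. With arrays scaled to one plateau none of the 4 differences passed: Pcdhga11 came to −0.12 in liver and 0.04 in spleen, and the 4-probe Pcdhga12 region to 0.08 and −0.05. The Pcdhga11 and Pcdhgb8 region came to 0.18 and 0.43 and the 6-probe Pcdhga12 region to 0.19 and 0.49, so 6 of these 8 differences were then above 0. Genotype cannot be told apart from scan day or from the laboratory of origin of the DNA in these pairs.

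Over the liver and spleen arrays together (2 against 2, with tissue as a term), limma gave −1.14 ± 0.21 (SE) for Pcdhga11 with a Benjamini-Hochberg adjusted p of 0.0051, and −1.13 ± 0.21 for the 4-probe Pcdhga12 region with 0.0059. The 6-probe Pcdhga12 region had −0.89 ± 0.21 (adjusted p = 0.024 in limma) and the Pcdhga11 and Pcdhgb8 region −0.77 ± 0.21 (adjusted p = 0.048 in limma). The Pcdhgc3 and Pcdhgc4 region had 0.15 ± 0.21 (adjusted p = 0.81 in limma). Thus 4 of 5 regions were called lower, beside 8.12% of all regions. Each genotype has 1 liver and 1 spleen array here, so the p-values do not measure the spread between animals. The fit has 1 residual degree of freedom, and the SE was 0.21 in all 5 regions. That SE comes mostly from a variance that limma pools over all regions. The agreement of the 2 tissues at a region itself enters its p-value only in small part. With arrays scaled to one plateau the same fit gave −0.04, 0.02, 0.34 and 0.30 for the 4 called regions, in the order above. Their limma adjusted p was then 0.53 to 0.98, and 1 of all 13183 regions was called.

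With the ES pair added (3 against 3 arrays), no member region was called: limma gave 0 of 13183 regions (0%) at an adjusted p under 0.05, and 1679 at an unadjusted p under 0.05. Pcdhga11 had −0.77 ± 0.27 (adjusted p = 0.39), the lowest adjusted p of the 5, and the others −0.27, −0.46, −0.43 and 0.03 with adjusted p of 0.50 to 0.94. The ES pair differed in direction from the tissues, which was not tested: aid-/- was above mbd4-/- by 0.73, 0.40 and 0.97 in the last 3 regions of Pcdhga11, Pcdhgb8 and Pcdhga12, and differed by −0.01 in the Pcdhga11 region. With arrays scaled to one plateau, those 3 regions came to 0.18, 0.19 and 0.08 in liver and to 0.43, 0.49 and −0.05 in spleen. The opposite direction of the tissues therefore depended on array scale.

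ES cells were then set against liver and spleen with limma. The replicates of a tissue here are arrays that differ in genotype, and the p-values measure the spread between them. The 4 ES arrays averaged 2.30 ± 1.98 (SD) for Pcdhga11, 1.22 ± 1.74 for Pcdhga11 and Pcdhgb8, and 2.66 ± 1.87 and 2.11 ± 1.50 for the 2 Pcdhga12 regions. The 4 tissue arrays averaged 2.13 ± 0.80, 1.98 ± 0.59, 2.25 ± 0.64 and 2.19 ± 0.72. For Pcdhgc3 and Pcdhgc4 the means were −0.11 ± 0.39 and −0.47 ± 0.11. None of the 5 regions was called, beside 0.22% of all regions: the differences were 0.17, −0.76, 0.41, −0.08 and 0.36, with limma adjusted p of 0.51 to 0.98. An exact two-sided permutation test of the 5 regions, 4 arrays against 4, gave p of 0.14 to 0.97 before adjustment.

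Leaving out the knockdown array narrowed the spread among ES cells, least at the Pcdhga11 and Pcdhgb8 region, where the SD was still 1.09 against 1.74 with it. Without the knockdown the ES mean of Pcdhga11 was 3.29 ± 0.21 over 3 arrays and that of the 6-probe Pcdhga12 region 3.57 ± 0.50, differences of 1.15 ± 0.36 (SE) and 1.32 ± 0.35 from liver and spleen. Their limma adjusted p was 0.15 and 0.11, so neither was called. Pcdhgc3 and Pcdhgc4 differed by 0.54 ± 0.18 (adjusted p = 0.17 in limma), the 4-probe Pcdhga12 region by 0.65 (0.38) and the Pcdhga11 and Pcdhgb8 region by −0.01 (0.99). Within scan day 1, on 2 ES and 2 aid-/- tissue arrays, Pcdhga11 and the 6-probe Pcdhga12 region were 1.78 and 2.00 higher in ES cells, and neither was called. The plateau was 4.34 (aid-/-) and 3.36 (wild type) on those ES arrays, and 2.23 and 2.24 in aid-/- liver and spleen. Over all 8 arrays, with the knockdown included again, the differences in these regions were 0.17 and 0.41 unscaled. With arrays scaled to one plateau they were −0.46 and −0.26. The scaled fit was not made without the knockdown.

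Other names of the cluster have 1 or 2 probes each, too few for a region: 9 probes of Pcdhga3, Pcdhgb1, Pcdhga5, Pcdhga8, Pcdhga10 and Pcdhgb7. Pcdhga3, the farthest of them before Pcdhga11, averaged 2.69 in ES wild type and 0.35 in the knockdown over 2 probes, and Pcdhga8 stood at 3.08 and 0.35 on 1 probe. Both were between 1.74 and 3.85 on the 7 other arrays. Pcdhga10 (1 probe) was not: it was 0.60 in wild type and 1.36 in the knockdown. Pcdhga5, Pcdhgb1 and Pcdhgb7 stood at −0.11, −1.43 and −1.78 in the knockdown, against 0.93, 0.79 and −0.12 in wild type, but 4 of their 5 probes failed the input filter.

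Outside the gamma genes the nearest gene-named regions did not have the pattern. Taf7, which encodes a subunit of the general transcription factor TFIID, lies 109 kb before the first probe and stood at −1.32 in ES wild type and −0.77 in the knockdown. Diap1, a formin gene, and Rell2 lie 127 and 147 kb after the last probe, with 0.27 and 0.82, and −1.02 and −1.24. The highest value of the 3 on any array was that 0.82.

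The protocadherin alpha cluster on the same chromosome gave a different order of arrays. Its 8 regions had a median of 0.36 in ES wild type, 1.61 in aid-/-, 2.01 in mbd4-/- and 0.31 in the knockdown, and of 2.10 to 3.29 in liver and spleen. Thus the alpha median was lowest in wild type and the knockdown alike, whereas the 4 A-type and B-type gamma regions averaged 3.38 in wild type and −0.46 in the knockdown. In the knockdown none of the 8 alpha regions was lower than in wild type (1 was with normexp background) and 1 was higher (Pcdha12, 0.07 against −1.36), beside 7.59% of all regions higher. In liver 5 of the 8 were lower in aid-/- than in mbd4-/-, beside the 8.01% of all regions, and 0 were with arrays scaled to one plateau. Of 18 regions of protocadherin genes outside the clusters, 3 were lower in the knockdown and 1 was higher, beside the 5.88% and 7.59% of all regions, and 1 was lower and 3 higher when arrays were centred on the low mode. Pcdh1, at 1.73 against 4.01, had the largest of those 3 differences, at −2.28. No Pcdhb gene had a region.

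**Figure D5:**
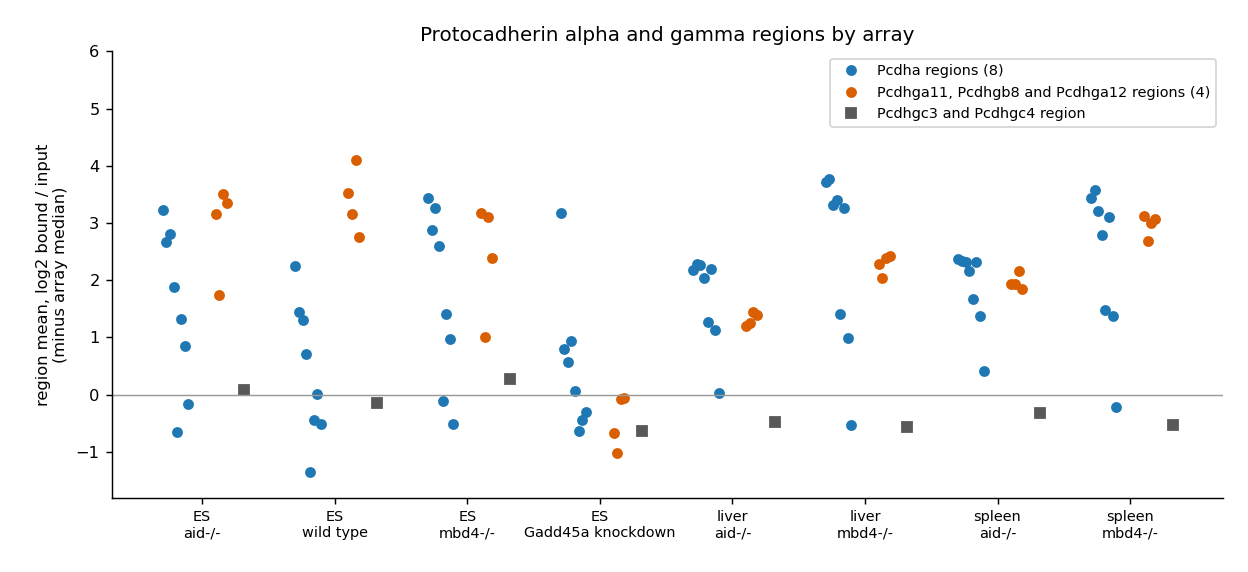
Points are centred log2 ratios averaged over the probes of a region (y axis) on each of the 8 arrays (x axis): 8 protocadherin alpha regions (blue), the 4 regions of Pcdhga11, Pcdhgb8 and Pcdhga12 (orange) and the Pcdhgc3 and Pcdhgc4 region (grey squares). The orange points lie above every blue point in ES wild type, at 2.75 to 4.10, and at −1.03 to −0.06 in the Gadd45a knockdown.

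Genes known to act on the cluster were looked up by name: CTCF, cohesin subunits and loaders, DNA methyltransferases and their cofactors, SMCHD1, SETDB1 with its partners, and TET dioxygenases. Of 21 names, 17 had a region, 18 regions in all, and these were near or below the array median on most arrays (medians over the 18 of −0.39 to −0.05). In the knockdown 1 of the 18 was higher than in wild type by the rule and none was lower, beside 7.59% and 5.88% of all regions. The 1 was Rad21, a cohesin subunit gene, at −0.42 against −1.54, and none differed with arrays scaled to one plateau. Smc1a, an X-linked cohesin gene, stood at −1.79 in ES wild type and was higher in ES aid-/- (0.23) and ES mbd4-/- (−0.52). It was the 1 of the 18 to pass there, beside 893 and 1048 of all 13183 regions higher. Smc1a and Stag2, also X-linked, were lower in aid-/- than in mbd4-/- spleen, at −0.84 against 2.78 and 0.22 against 2.53.

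The gene-named regions outside the protocadherins with the pattern nearest to the mean of the 5 regions, by the root mean square difference over the 8 arrays, were Paqr9 (0.42), Disp2 (0.47), Snai1 (0.49), Cilp2 and Gpr179 (both 0.52), against a median of 2.05 over all regions. Nearest to the mean of the 4 A-type and B-type regions were Slc29a4 (0.50), Gpr179 (0.54), Epha2 (0.55), Zfp707 (0.56) and Pde4c (0.58). Epha2, an ephrin receptor gene, stood at 3.05 in ES wild type and −0.74 in the knockdown. Nearest to the Pcdhgc3 and Pcdhgc4 region were Lysmd3 (0.15), Rora (0.17), Cish, 2210010N04Rik and Pscd1 (0.18 each), with values from −0.64 to 0.34 across the 8 arrays.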

How the data were processed

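Bound and input DNA of 8 samples, 1 array each, were compared. The deposited intensity values are the scanner software's processed signals: background was subtracted and the dyes were balanced linearly, per the file headers. The software was Agilent Feature Extraction, 10.7.3.1 for ES mbd4-/- and the knockdown and 10.9.1.1 for the other 6. The deposited log10 ratios of Cy5 over Cy3 were used only to check direction (r = 0.983 to 1.000 with the ratio of processed signals). Dyes were never swapped. The deposited value table is a score with an SD near 1 per array, medians of −0.21 to −0.03 and r = 0.898 to 0.972 with the scanner log ratio. Its scale and the steps behind it are not given in the sources used here, so it served as an alternative only, rescaled to the spread of the scanner ratios.

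From the deposited intensities log2 of bound over input was taken and each array centred on its median over 88737 probes, with no loess or quantile step. Of the probes, 326 had no position, 132 carried an outlier flag and 7174 had a dim input on at least 1 array; none of these entered a region, though counts over single probes of the 5 genes include the 4 with a dim input. The remaining 81105 were joined into regions (starts at most 500 bp apart, at least 3 probes, mean of probes). Gene names come from 2 of the files. The names of the member probes are identical in both. Pairs of arrays were compared by size and direction alone. limma 3.58.1 in R 4.3.3 fitted the 2 comparisons over several arrays with tissue as a term, on all regions, with Benjamini-Hochberg adjustment. The fits and the rule for pairs were tested on simulated data. Alternatives covered centring, scaling to one plateau, background, GC content, joining distance, filters, each array left out, scan day, software and slide. normexp used median rather than mean signals, since 6 files hold no mean input signal. The number of arrays limits the precision.

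The 5 genes, the gene lists and the tests were chosen with earlier results of these data known. Named besides the 5 genes were protocadherin and regulator genes past the rule where a member was too, neighbours within 250000 bp, and the 5 regions of nearest pattern.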

Additional observations from a re-analysis of the deposited data

Results flagged for a closer look

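Among the 4 ES arrays, the Gadd45a knockdown stood apart at Pcdhga11, with −0.66 against 3.16 to 3.53 on the 3 others. Its gap to the nearest array was 0.91 of the whole range, above the 95% critical value of Dixon's test for 4 values. That value holds for replicates, whereas these 4 arrays differ in genotype, so it serves as a flag only. Even among replicates, chance alone marks about 1 in 20 groups, and 10 were looked at. At the 2 Pcdhga12 regions the same array's gap was 0.76 and 0.72 of the range, under that value, and at Pcdhga11 and Pcdhgb8 it was 0.49. Scan day and slide of this array are its own, so they cannot be told apart from the knockdown.

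The difference between aid-/- and mbd4-/- had the opposite direction in ES cells from liver and spleen in 4 regions, and this was not tested. In ES cells it was 0.73 at Pcdhga11 and Pcdhgb8, 0.40 at the 6-probe Pcdhga12 region, 0.97 at the 4-probe Pcdhga12 region and −0.20 at Pcdhgc3 and Pcdhgc4. In liver it was −0.79, −0.93, −1.03 and 0.09, and in spleen −0.76, −0.84, −1.22 and 0.20. With arrays scaled to one plateau, the liver values were 0.18, 0.19, 0.08 and −0.24, and the spleen values 0.43, 0.49, −0.05 and 0.002. At that scale the liver values had the direction of the unscaled ES values in all 4 regions. In spleen the 4-probe Pcdhga12 region and Pcdhgc3 and Pcdhgc4 kept the opposite direction, at values near 0.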

How the results depend on the processing

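The 4 regions of Pcdhga11, Pcdhgb8 and Pcdhga12 were lower in the Gadd45a knockdown than in wild type by the rule in all 12 alternatives, with differences from −5.20 to −1.79, and the Pcdhga11 and Pcdhgb8 region was lower in aid-/- (−3.33 to −1.14) and mbd4-/- (−2.40 to −1.63) in all 12. Liver and spleen differences did not all keep their direction: at one plateau 6 of the 8 of those 4 regions turned from below to above 0, among them 2 that had passed the rule, the 4-probe Pcdhga12 region in liver (0.079) and Pcdhga11 in spleen (0.037). Counts over all regions moved by more than 1.5 times in these settings. At one plateau 557 (aid-/-), 518 (mbd4-/-), 248 (liver) and 635 (spleen) regions differed, against 1382, 1367, 1172 and 1099. With normexp background it was 247 (aid-/-), 179 (mbd4-/-) and 825 (knockdown, against 1776), with the deposited values 896 (mbd4-/-) and 591 (liver), and centred on the low mode 2734 (knockdown). The share of higher regions in the knockdown was 56.4%, and 82.0% centred on the low mode and 12.5% with normexp background (the low mode moved the median difference of all regions there from 0.17 to 0.47). In aid-/- it was 64.6%, with 87.1% on the low mode, 98.4% with normexp and 79.8% centred on the probes used. In liver it was 9.9%, with 24.7% on the low mode, 44.4% at one plateau and 49.6% with the deposited values, and in spleen 2.18%, with 20.6% at one plateau and 14.8% with the deposited values. For ES against tissues, limma called 29 regions, and 122 (low mode), 427 (one plateau), 1 (normexp), 433 (deposited values), 49 (GC correction), 1534 (the 6 aid-/- and mbd4-/- arrays with genotype as a term), 5 (scan day as a term), 2 (software as a term), 71 (slide as a random block) and 89 (scan day 1 alone). Leaving out each array gave 0 to 198 (198 without the knockdown, 0 without mbd4-/- liver). None of the 5 regions was called in any of these 24 fits; the lowest adjusted p was 0.052. For aid-/- against mbd4-/-, leaving out each array gave 0 to 1128; 1128 came without either ES array, as with liver and spleen only, and 1 with liver and spleen at one plateau. Arrays left out of a tissue pair take the whole pair with them, and a lone array is assumed to vary like the others. Alternatives chosen after seeing the data were centring on the probes used, raising bound signals to the array's floor, slide, scan day 1 alone and the last plateau fit. The labels give no replicate numbers; the aid-/- against mbd4-/- fits hold tissue as a term, which sets arrays of the same tissue against each other. Signal over background limits the low end: of the 24 probes of Pcdhga11, Pcdhgb8 and Pcdhga12, 8 in the knockdown, 5 in ES aid-/-, 4 and 3 in aid-/- liver and spleen and 1 in mbd4-/- spleen had no bound signal well above it.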
